A study of Homo sapiens with 15 samples.

Results

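High doses of the anticancer compound ZJ-101 were compared with low doses of the same compound in MDA-MB-231 cells, so that every library in the comparison had received drug. The comparison was defined from the sample labels alone: the 6 libraries treated with 50 or 500 nM formed the high-dose group, and the 6 libraries treated with 0.5 or 5 nM formed the low-dose group. These are 12 of the 15 libraries of the series. The other 3 libraries came from cells given the DMSO vehicle (0.1%). They were left out of the fit behind the comparisons below and are quoted as a reference level, but they count in the mean that decided which genes were tested, and an alternative fit that holds all 15 libraries is named where it is used. MDA-MB-231 is an established human triple-negative breast cancer cell line, grown here as a flat (2D) layer in dishes, and ZJ-101 is a truncated synthetic form of superstolide A, a macrolide from a marine sponge. Each group of one dose held 3 biological replicates, and RNA was extracted after 6 h of treatment in every group. All libraries came from 1 cell line in 1 culture format, and no other compound was present for comparison. The values are normalized counts, that is, read counts per gene divided by a size factor of the library.

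Secreted and membrane proteins are folded and glycosylated in the endoplasmic reticulum (ER), carried to the Golgi apparatus in coated vesicles, and receive most of their O-linked and glycosaminoglycan sugars there. Cells answer misfolded protein in the cytosol with the heat shock response, in which heat shock factors raise chaperones of the HSP70 and HSP90 families. They answer misfolded protein in the ER with the unfolded protein response (UPR), in which the sensors IRE1, PERK and ATF6 raise ER chaperones such as HSPA5. The heat shock response and the UPR are controlled separately and are described in turn.

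Depth was similar on both sides. The low-dose libraries held 13080286 to 15284762 reads on genes and the high-dose libraries 12415519 to 15204938, with the lowest totals at 50 nM. Mitochondrial genes took 0.889% to 2.06% of the reads at the low doses and 1.02% to 1.83% at the high doses. Replicate 2 of 0.5 nM stood apart: its counts differed from those of the other 2 libraries of its dose with a chi-square divided by its degrees of freedom of 10.2 and 15.1, against 2.72 to 5.81 for all other pairs of treated replicates. The numbers of called genes were therefore also computed without it, and without each other treated library in turn. The cell line's mesenchymal and basal markers were abundant, with CD44, AXL, CAV1, EGFR, MSN, FOSL1 and VIM between 3471 and 18413 normalized counts in all 15 libraries, whereas SPARC, another gene of that list, did not exceed 6.2. The estrogen receptor gene ESR1 did not exceed 4.3 normalized counts. KRT8, KRT18 and ERBB2, which luminal cells also express, were present. EPCAM (266 to 320), GATA3 (122 to 168) and CDH1 (107 to 206) of the same luminal list were also detected. PGR, FOXA1 and TFF1 measured at most 32.7. Of the blood, endothelial and muscle markers, PTPRC, CD3E, HBB, VWF, CDH5, MYH11 and DES did not exceed 3.6, ACTA2 did not exceed 17.5 and PECAM1 lay between 200.8 and 321.4.

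The 2 high doses set the libraries apart along the main axis of variation. The first principal component of all 15 libraries held 20.2% of the variance, and on it the 6 low-dose libraries scored between -12.0 and -5.4, beside the DMSO libraries at -12.4 to -8.8. The 50 nM libraries scored 2.14 to 11.02 and the 500 nM libraries 17.8 to 20.5, so that no high-dose library overlapped a low-dose one. The second component (10.3%) mainly separated 0.5 nM replicate 2, at -26.8. On the third component (9.44%) the DMSO libraries, at 8.92 to 10.63, lay with those of 50 nM, at 6.67 to 10.63, and apart from the low-dose libraries, at -10.84 to -2.31, and from those of 500 nM, at -6.24 to -2.84.

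**Figure D1:**
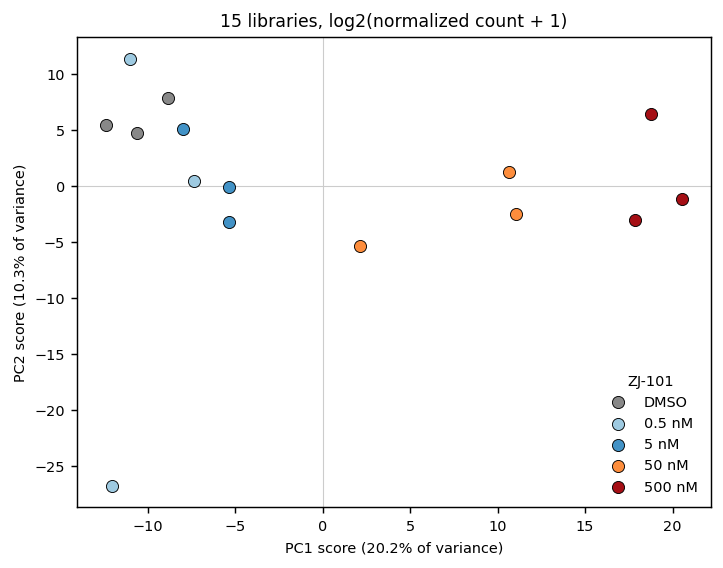
Scores of the 15 libraries (points, colored by dose) on the first (x axis) and second (y axis) principal component of log2(normalized count + 1). Along the x axis the 50 nM libraries lie between 2.14 and 11.02 and the 500 nM libraries between 17.8 and 20.5, all to the right of the low-dose and DMSO libraries, and 0.5 nM replicate 2 lies alone at -26.8 on the y axis.

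Genes averaging 10 or more normalized counts across all 15 libraries were tested. Of these 13561 genes, 1169 were higher and 1088 were lower at the high doses (limma, Benjamini-Hochberg adjusted p under 0.05). Thus 16.6% of the tested genes were called, 8.62% as rises and 8.02% as falls, and these shares are the background for every gene group below. Differences are given as log2 differences, the mean of the 50 and 500 nM groups minus the mean of the 0.5 and 5 nM groups on the scale log2(normalized count + 1), which understates changes of genes with few reads. Most were small: 1951 of the 2257 called genes differed by less than 0.5, and 33 by 1 or more, of which 7 rose and 26 fell. The median over all tested genes was -0.0018. For 1072 genes (7.91%) the 6 high-dose libraries did not overlap the 6 low-dose ones, and 1042 of these were called. Without 0.5 nM replicate 2 the counts were 1307 rises and 1354 falls, and 2108 of the 2257 genes were called again. The labels number the replicates but do not say how the cultures were separated, so the p-values measure the spread between these libraries. In bulk RNA, fewer cells of a type and less RNA per cell cannot be told apart.

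The called genes were described over 39 lists of related genes. In lists of cytosolic chaperones and of amino acid transporters, rises outnumbered falls. In lists of ER chaperones and oxidoreductases, vesicle coats and cargo receptors, Golgi glycosyltransferases, extracellular matrix, ID and BMP-SMAD genes and NF-kB target genes, falls outnumbered rises, and the remaining members were not called. By limma calls in both directions together, ribosomal proteins, the respiratory chain, the proteasome and translation factors stayed below the background of 16.6%. Falls alone reached 12.9% among ribosomal proteins, 9.09% in the proteasome and 8.33% among nuclear respiratory chain genes, against 8.02% of all tested genes. With each of the 12 treated libraries left out in turn, the rises numbered 12 to 14 in the HSP70 list, 10 to 11 in the HSP90 list and 11 to 13 among amino acid transporters. The falls numbered 12 to 15 among ER chaperones, 12 to 15 among oxidoreductases and 13 to 19 among COPI and cargo receptor genes. In the glycosyltransferase list, which also holds mannosidases, they numbered 24 to 31. They numbered 27 to 29 in the matrix, 11 to 15 in the ID and BMP-SMAD list and 12 to 16 among NF-kB targets. Without 0.5 nM replicate 2 these falls were 15, 15, 19, 31, 29, 15 and 14. The lists were drawn up from general knowledge with earlier results of these data known, so their directions are a description and no set test was run.

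**Figure D2:**
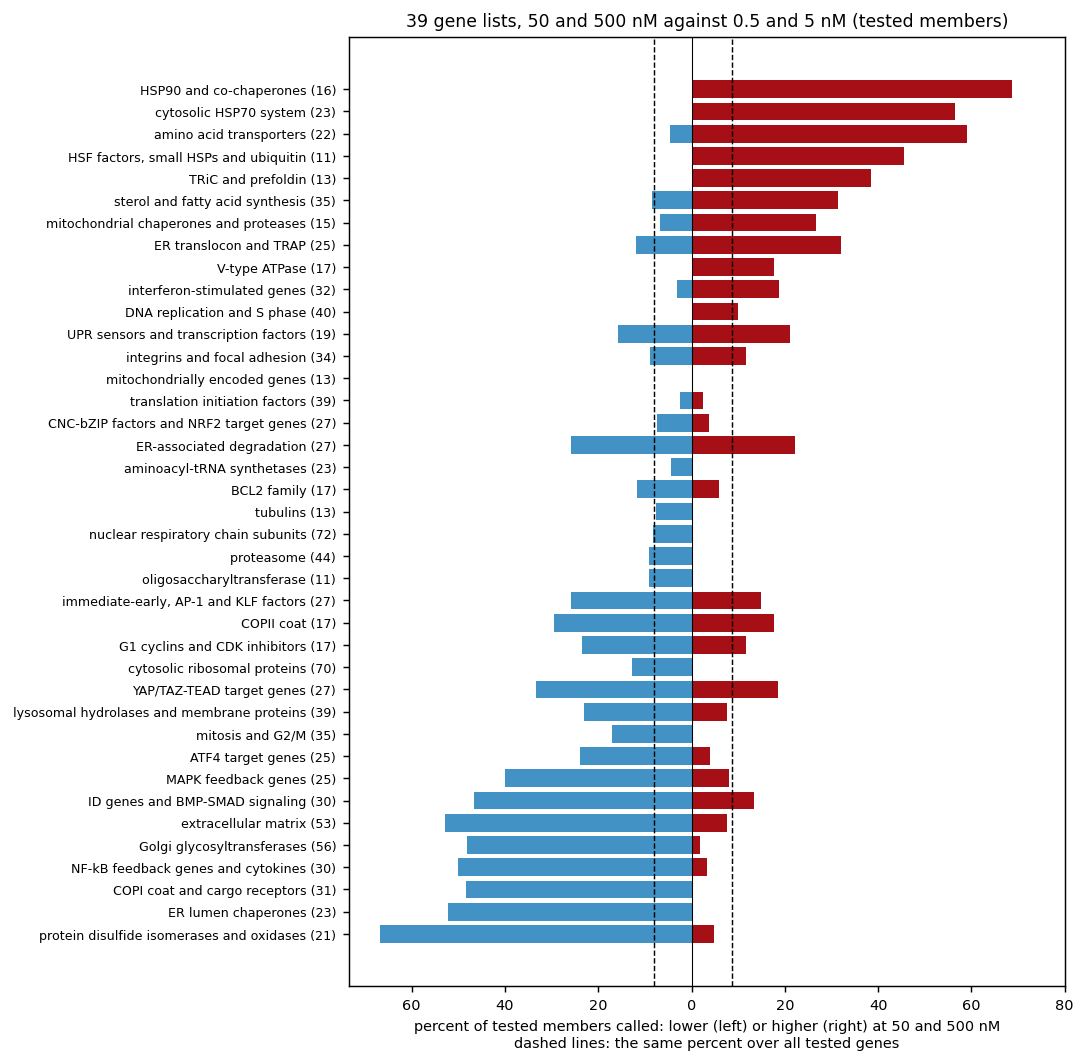
Percent of the tested members of 39 gene lists (rows, number of tested members in parentheses) that were called higher (bars to the right) or lower (bars to the left) at 50 and 500 nM, with the percent over all tested genes as dashed lines (8.62% and 8.02%). HSP90 and its co-chaperones reach furthest to the right (11 of 16) and the protein disulfide isomerases and oxidases furthest to the left (14 of 21).

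Cytosolic chaperone genes were among the rises. Of 23 tested genes of the cytosolic HSP70 system, which binds unfolded protein and hands it on, 13 rose and limma called 0 as falls, as did edgeR and DESeq2 and as did an unadjusted p under 0.05. The median log2 difference of the list was 0.29. Of 16 tested genes of HSP90 and its co-chaperones, 11 rose, with a median of 0.21. Limma, edgeR and DESeq2 each called 0 of them as falls, and 2 were lower at an unadjusted p under 0.05. The other 10 genes of the HSP70 list and 5 of the HSP90 list were not called. Without 0.5 nM replicate 1, without 0.5 nM replicate 3 or without 50 nM replicate 2, 1 gene of the HSP90 list was called as a fall.

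HSPH1 encodes HSP110, a nucleotide exchange factor of HSP70. It measured 3002 to 3760.5 (median 3197) normalized counts in the low-dose libraries and 5589.7 to 8734 (median 7484) in the high-dose libraries, with 2994 to 3284 in DMSO (log2 difference 1.17 ± 0.048 SE, limma adjusted p = 1.52e-10). HSPA8, the constitutive HSP70 of the cytosol, was among the most abundant of all these genes. It measured 30026 to 38577 (median 33035) at the low doses and 57772 to 73465 (median 67826) at the high doses (log2 difference 0.98 ± 0.040 SE, limma adjusted p = 1.36e-10). The groups did not overlap for either gene. DNAJB1, the J-domain protein that delivers clients to HSP70, measured 2932 to 3337 (median 3107) at the low doses and 5192 to 7196 (median 6057) at the high doses (log2 difference 0.96 ± 0.031 SE, limma adjusted p = 1.12e-11). The lowest high-dose library of DNAJB1 exceeded the highest low-dose one by more than the whole range of the low-dose group. The further members HSPA4L and DNAJA1 rose by 0.68 and 0.66, and BAG3, a nucleotide exchange factor that links HSP70 to small heat shock proteins, by 0.30. The heat-inducible HSPA6 rose by 1.75 from a very low level, 3.09 to 11.6 (median 7.04) against 9.57 to 37.1 (median 29.7), and the near-identical HSPA7 could share its reads. HSPA6 reached the mean of 10 needed for testing only through its high-dose libraries. Its rise is counted in the list but is a description and no support.

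HSP90AA1, the inducible cytosolic HSP90, measured 43137 to 49892 (median 45063) at the low doses and 75657 to 102246 (median 91718) at the high doses (log2 difference 0.97 ± 0.046 SE, limma adjusted p = 5.63e-10). Its pseudogene HSP90AA2P carries nearly the same sequence and showed nearly the same difference (1.04), so the 2 are uncertain as separate genes. CHORDC1, an HSP90-binding co-chaperone, measured 937 to 1138 (median 1038) at the low doses and 1619 to 2383 (median 1947) at the high doses (log2 difference 0.94 ± 0.051 SE, limma adjusted p = 2.86e-09). Its groups did not overlap. STIP1, which bridges HSP70 and HSP90, rose by 0.49, HSP90AB1, the constitutive HSP90, by 0.44, AHSA1, the activator of its ATPase, by 0.42, and FKBP4, a peptidyl-prolyl isomerase bound to HSP90, by 0.31.

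Rises also occurred in lists of other chaperones, small heat shock proteins, ubiquitin and mitochondrial proteases. Of 13 tested subunits of the chaperonin TRiC and prefoldin, 5 rose, with TCP1 at 0.30 and CCT2 at 0.17, and a list median of 0.04. Limma, edgeR and DESeq2 called 0 falls, as did an unadjusted p under 0.05. Of 11 genes of heat shock factors, small heat shock proteins and ubiquitin, 5 rose (median 0.18). HSPB1, which encodes HSP27, measured 2699 to 3149 (median 2829) at the low doses and 3582 to 4256 (median 3929.5) at the high doses (log2 difference 0.45 ± 0.039 SE, limma adjusted p = 5.61e-07). The polyubiquitin gene UBB rose by 0.21, and SQSTM1, an autophagy receptor, by 0.18. Limma, edgeR and DESeq2 called 0 falls in this list, as did an unadjusted p under 0.05. Among 15 mitochondrial chaperones and proteases 4 rose and 1 fell, and HSPD1 and HSPE1, the mitochondrial HSP60 and its lid, rose by 0.44 and 0.33. HSPD1 has 2 near-identical pseudogenes, which could take some of its reads.

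The sequences before these genes were searched because the heat shock factors bind a known repeat, the heat shock element. The search covered 300 bases per gene (250 before and 50 after the start) from RefSeq on GRCh38.p14, on both strands, for GAANNTTCNNGAA or TTCNNGAANNTTC. Overlapping matches were counted. RefSeq held such a window for 10029 of the 13561 tested genes. The repeat occurred in 0.487% of all 27305 promoters, in 0.319% of those of tested genes, in 10 of 895 promoters of genes that rose (1.12%) and in 2 of 855 of genes that fell (0.234%). Among the 74 promoters of genes that rose by at least 0.5 the repeat occurred in 5 (6.76%), namely HSPA6, DNAJA1, CHORDC1, HSPA8 and ABHD3, the last a lipid hydrolase gene outside the chaperone lists, which rose by 0.58. Both counts of rising genes include HSPA6, which was tested only because of its high-dose level and so adds no support. The windows of HSPA8 (chr11:123062154-123062386, minus strand) and CHORDC1 (chr11:90223062-90223134, minus strand) are shown 5′ to 3′ with the matches in capitals, as 1 example each from the HSP70 and HSP90 lists, chosen after the matches were seen.
HSPA8: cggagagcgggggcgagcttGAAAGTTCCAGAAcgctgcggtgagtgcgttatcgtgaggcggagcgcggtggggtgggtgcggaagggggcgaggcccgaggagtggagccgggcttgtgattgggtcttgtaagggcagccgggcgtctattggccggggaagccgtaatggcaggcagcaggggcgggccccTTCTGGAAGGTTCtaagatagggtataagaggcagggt
CHORDC1: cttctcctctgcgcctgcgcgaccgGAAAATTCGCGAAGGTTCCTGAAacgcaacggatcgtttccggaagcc
HSPA8 held 2 matches and CHORDC1 held 3 overlapping ones, ending 42 and 37 bases before the start. HSPH1, DNAJB1, HSP90AA1, HSPD1, STIP1, HSPB1 and HSPE1 held none of these letters in the window. A match is a description of the sequence and was not tested for binding.

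Amino acid transporters were another list in which rises outnumbered falls. Of 22 tested genes 13 rose and 1 fell, with a list median of 0.22. SLC3A2 (chr11:62856004-62888880, plus strand, a protein-coding gene) encodes the heavy chain of CD98, which carries several amino acid exchangers to the cell surface, and it had the strongest rise by p of all tested genes. It measured 2341 to 4199.6 (median 3123) normalized counts in the low-dose libraries and 9062 to 10704 (median 10039.6) in the high-dose libraries, with 2389 to 2612 in DMSO (log2 difference 1.66 ± 0.050 SE, limma adjusted p = 1.01e-11). The groups did not overlap, and the lowest high-dose library lay far above the highest low-dose one. The 5 nM libraries lay above those of 0.5 nM, 3890.5 ± 381 against 2580.2 ± 223 (mean ± SD, n = 3 each). SLC7A5, the light chain LAT1 that pairs with SLC3A2, measured 3822 to 4413 (median 3968) at the low doses and 4797 to 7141 (median 6019) at the high doses (log2 difference 0.54 ± 0.044 SE, limma adjusted p = 2.67e-07). The light chains SLC7A6 and SLC7A11 rose by 0.32 and 0.21, the glutamate transporter SLC1A3 by 0.46, the glutamine transporters SLC38A1 and SLC1A5 by 0.24 and 0.19, and the arginine transporter SLC7A1 by 0.20, a call lost in 10 of 24 alternative analyses. SLC7A6 shares 55.6% of its exon bases with SLC7A6OS, so its reads are uncertain. The fall was SLC38A10 (-0.56).

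The ATF4 target genes, which amino acid shortage and the PERK arm raise, held 1 rise and 6 falls among 25 tested. The rise was GADD45A (0.18), a call lost in 12 of 24 alternatives, and the falls were led by VLDLR (-0.76), with DDIT4 (-0.43) and CEBPB (-0.36) among them. The median of the list was -0.07. ATF4 itself measured 3502 to 4078 (median 3775) at the low doses and 3422 to 3706 (median 3669) at the high doses (log2 difference -0.055 ± 0.038 SE, limma adjusted p = 0.371), though 2 near-identical pseudogenes could take its reads. TRIB3 did not pass the test (log2 difference -0.20 ± 0.070 SE, limma adjusted p = 0.0667). The letters TGATGNAA, found in many ATF4-bound elements, occurred on either strand in 3.67% of all promoters, 1.66% of those of tested genes, 2.01% of those of genes that rose and 1.75% of those of genes that fell. They occurred in 1 of the 17 ATF4 target genes with a window. Of the 18 amino acid transporters with a window, 4 held them (22.2%): SLC3A2, SLC38A1, SLC1A3 and SLC7A1. Only in SLC1A3 did the match lie wholly before the start. Among 23 aminoacyl-tRNA synthetases, another set of ATF4 targets, 6 of 19 windows held these letters. In this set 1 gene fell and limma, edgeR and DESeq2 called 0 as rises (1 at an unadjusted p under 0.05).

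Of 23 tested ER lumen chaperones 12 fell and 11 were not called, with a median of -0.16 and a highest value of 0.075, and limma, edgeR and DESeq2 called 0 as rises (1 at an unadjusted p under 0.05). Without 0.5 nM replicate 2, 15 fell and 1 rose. HSPA5 encodes BiP, the ER HSP70. It measured 12287 to 14499.9 (median 13233) at the low doses and 5282 to 10736 (median 7711) at the high doses, with 13787 to 14375 in DMSO (log2 difference -0.83 ± 0.032 SE, limma adjusted p = 8.12e-11). Its fall lay mainly between the 2 high doses, with 10190.2 ± 495 at 50 nM and 5439 ± 190.1 at 500 nM. CALR, the glycoprotein chaperone calreticulin, measured 16883 to 19395 (median 18012) at the low doses and 10860.2 to 14204 (median 11852) at the high doses (log2 difference -0.58 ± 0.038 SE, limma adjusted p = 2.30e-08). MANF, a small ER protein that stabilizes BiP with its client, measured 1131 to 1750.0 (median 1399) against 875 to 1006 (median 930.0) (log2 difference -0.58 ± 0.039 SE, limma adjusted p = 2.94e-08). Neither CALR nor MANF overlapped between the groups. DNAJC3, CRELD2 and SDF2L1 fell by 0.53, 0.41 and 0.40 on the log2 scale. HSP90B1, the ER HSP90, had a smaller difference of -0.13 with overlapping groups, and HYOU1 did not pass the test (-0.10).

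Most genes of disulfide bond formation were lower. Of 21 tested protein disulfide isomerases and oxidases 14 fell and 1 rose, with a median of -0.24, the largest share of falls among the 39 lists. QSOX2, a sulfhydryl oxidase, measured 1784 to 2108 (median 2026) at the low doses and 1089.9 to 1393 (median 1191) at the high doses (log2 difference -0.73 ± 0.044 SE, limma adjusted p = 1.19e-08). The oxidases ERO1B and ERO1A fell by 0.69 and 0.55, ERP44, which retains ERO1 in the early secretory pathway, by 0.59, and PDIA6, PDIA4 and P4HB by 0.34, 0.20 and 0.16.

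The UPR regulators were split. Of 19 tested, 4 rose and 3 fell. XBP1, the transcription factor downstream of IRE1, measured 1383 to 1619.9 (median 1465) at the low doses and 892 to 1321 (median 1050.1) at the high doses, with 1736 to 1907 in DMSO (log2 difference -0.47 ± 0.040 SE, limma adjusted p = 5.48e-07). The sensors ATF6 and EIF2AK3, the gene of PERK, also fell (-0.41 and -0.35). ERN1, the gene of IRE1, rose (0.30), as did MBTPS2, the protease that releases ATF6 (0.23). The files give one value per gene, so spliced and unspliced XBP1 cannot be told apart.

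ER-associated degradation was also split, with 6 rises and 7 falls among 27 genes. EDEM3, which trims misfolded glycoproteins, measured 1273 to 1622 (median 1487) at the low doses and 662 to 862 (median 786) at the high doses (log2 difference -0.92 ± 0.059 SE, limma adjusted p = 1.74e-08). The other falls were its relatives EDEM1 (-0.49) and EDEM2 (-0.23), the lectin gene ERLEC1 (-0.53), HERPUD1 (-0.45), and ERLIN2 (-0.30) and ERLIN1 (-0.22), which encode membrane proteins of the ER. Rises included FAF2 (0.42), which recruits the ATPase p97, and the ubiquitin ligase SYVN1 (0.36). Of 25 translocon and TRAP genes 8 rose and 3 fell, with 5 rises without 50 nM replicate 3, and 1 fall without 5 nM replicate 1 or without 500 nM replicate 1. TRAM2, a translocon-associated protein, measured 3440.0 to 4474 (median 4244) at the low doses and 5364 to 6827 (median 6016) at the high doses (log2 difference 0.55 ± 0.045 SE, limma adjusted p = 3.33e-07). SEC62 and SRPRB rose by 0.36 and 0.30, whereas the signal peptidase subunit SPCS3 fell (-0.25). Of 11 oligosaccharyltransferase subunits 1 (RPN1) fell and limma, edgeR and DESeq2 called 0 as rises, as did an unadjusted p under 0.05.

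The ER stress element was searched in the same windows, as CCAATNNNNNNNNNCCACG on both strands, because it is bound by ATF6 and XBP1 with NF-Y at ER chaperone genes. It occurred in 0.0806% of all 27305 promoters and in 14 promoters of tested genes. Of these 14 genes 7 fell, namely HSPA5, CALR, XBP1, CRELD2, HSP90B1, ERO1B and SERP1 (-0.11), and 0 of 895 promoters of genes that rose held it. The other 7 genes were not called. The windows of HSPA5 (chr9:125241366-125241434, minus strand), CALR (chr19:12938359-12938427, plus strand), XBP1 (chr22:28800578-28800646, minus strand) and CRELD2 (chr22:49918529-49918597, plus strand) are shown 5′ to 3′ with the matches in capitals, because these are the 4 of the 7 falling genes whose groups did not overlap.
HSPA5: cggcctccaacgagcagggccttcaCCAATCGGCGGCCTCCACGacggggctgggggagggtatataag
CALR: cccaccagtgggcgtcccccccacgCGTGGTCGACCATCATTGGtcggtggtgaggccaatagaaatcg
XBP1: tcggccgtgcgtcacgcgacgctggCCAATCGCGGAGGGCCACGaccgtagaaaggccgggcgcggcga
CRELD2: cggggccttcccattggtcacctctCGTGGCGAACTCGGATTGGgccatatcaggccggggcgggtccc
In CALR and CRELD2 the match is on the other strand, so the capitals read as the reverse complement. MANF, SDF2L1, DNAJC3, PDIA4, DNAJB11, HERPUD1 and EDEM1 held none of these letters in the window.

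Vesicle transport between ER and Golgi held falls in both coats and rises in 1 of them. Of 31 tested genes of the COPI coat and cargo receptors 15 fell (median -0.12), and limma, edgeR and DESeq2 called 0 as rises, as did an unadjusted p under 0.05. TMED3, a p24 cargo receptor, measured 1073 to 1341 (median 1204) at the low doses and 697 to 874 (median 778) at the high doses (log2 difference -0.60 ± 0.047 SE, limma adjusted p = 2.07e-07). TMED9, TMED7 and TMED10 of the same family fell by 0.59, 0.47 and 0.27. LMAN1, the lectin that carries glycoproteins out of the ER, fell by 0.23, the coat subunit COPA by 0.18, and the small GTPases ARF1 and ARF4 by 0.13 and 0.12. The call of ARF4 was lost in 7 of 24 alternatives. Of 17 COPII genes 5 fell and 3 rose. SEC24D, a cargo-binding coat subunit, measured 1046 to 1277 (median 1187) at the low doses and 505 to 751 (median 617) at the high doses (log2 difference -0.94 ± 0.048 SE, limma adjusted p = 1.26e-09). SEC24A, SEC13 and SEC23A also fell, by 0.52, 0.17 and 0.16. The rises were MIA2 (0.35) and MIA3 (0.33), which help load bulky cargo, and KLHL12 (0.21), a ubiquitin ligase adaptor for the coat. Without 0.5 nM replicate 2, 7 COPII genes fell. CKAP4, the sheet-shaping membrane protein of the ER, was one of the falls with the smallest p, with 7341 to 8884 (median 8269) at the low doses and 2777 to 4864 (median 3691) at the high doses (log2 difference -1.19 ± 0.040 SE, limma adjusted p = 1.71e-11).

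Many genes of the Golgi glycosyltransferase list were lower. Of 56 tested 27 fell and 1 rose, with a median of -0.17. Not all members are Golgi glycosyltransferases. The falls include the mannosidases MAN1A1, MAN1A2 and MAN1B1, which trim N-glycans, and POFUT1 and POFUT2, which act in the ER. CHPF, the chondroitin polymerizing factor, measured 579 to 903 (median 737) at the low doses and 255 to 326 (median 262) at the high doses, with 863 to 911 in DMSO (log2 difference -1.43 ± 0.060 SE, limma adjusted p = 1.55e-10). Its relative CHPF2 measured 906 to 1285 (median 1039) against 454 to 532 (median 509) (log2 difference -1.08 ± 0.050 SE, limma adjusted p = 4.19e-10). B4GALT1, which adds galactose to N-glycans, measured 2295 to 2728 (median 2387) against 1429.9 to 1552 (median 1506) (log2 difference -0.69 ± 0.038 SE, limma adjusted p = 3.83e-09). The groups did not overlap for these 3 genes. EXTL3, which starts heparan sulfate chains, fell by 0.49, POFUT2, an O-fucosyltransferase, by 0.48, GALNT1, which starts mucin-type O-glycans, by 0.37, MGAT1, which opens the path to complex N-glycans, by 0.38, and C1GALT1, the core 1 O-glycan enzyme, by 0.11. C1GALT1 lost its call in 14 of 24 alternative analyses. The rise was CSGALNACT2 (0.28), which starts chondroitin chains. MOGS, the glucosidase that trims N-glycans in the ER, fell from 1038 to 1361 (median 1174) to 669 to 761 (median 736) (log2 difference -0.72 ± 0.036 SE, limma adjusted p = 1.24e-09).

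Of 17 V-type ATPase subunits 3 rose, and limma, edgeR and DESeq2 called 0 as falls (1 at an unadjusted p under 0.05). The membrane-sector subunit ATP6V0A2 measured 605 to 734 (median 683) at the low doses and 942 to 1147 (median 1042) at the high doses (log2 difference 0.63 ± 0.051 SE, limma adjusted p = 3.07e-07). Its isoforms ATP6V0A1 and TCIRG1 rose by 0.62 and 0.25, so that the called members were all forms of one subunit. Among 39 lysosomal genes 9 fell and 3 rose, with 6 rises without 0.5 nM replicate 3. NAGLU and SGSH, which degrade heparan sulfate, fell by 0.80 and 0.56, and the cholesterol transporter NPC1 and the calcium channel MCOLN1 rose by 0.23 and 0.20.

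**Figure D3:**
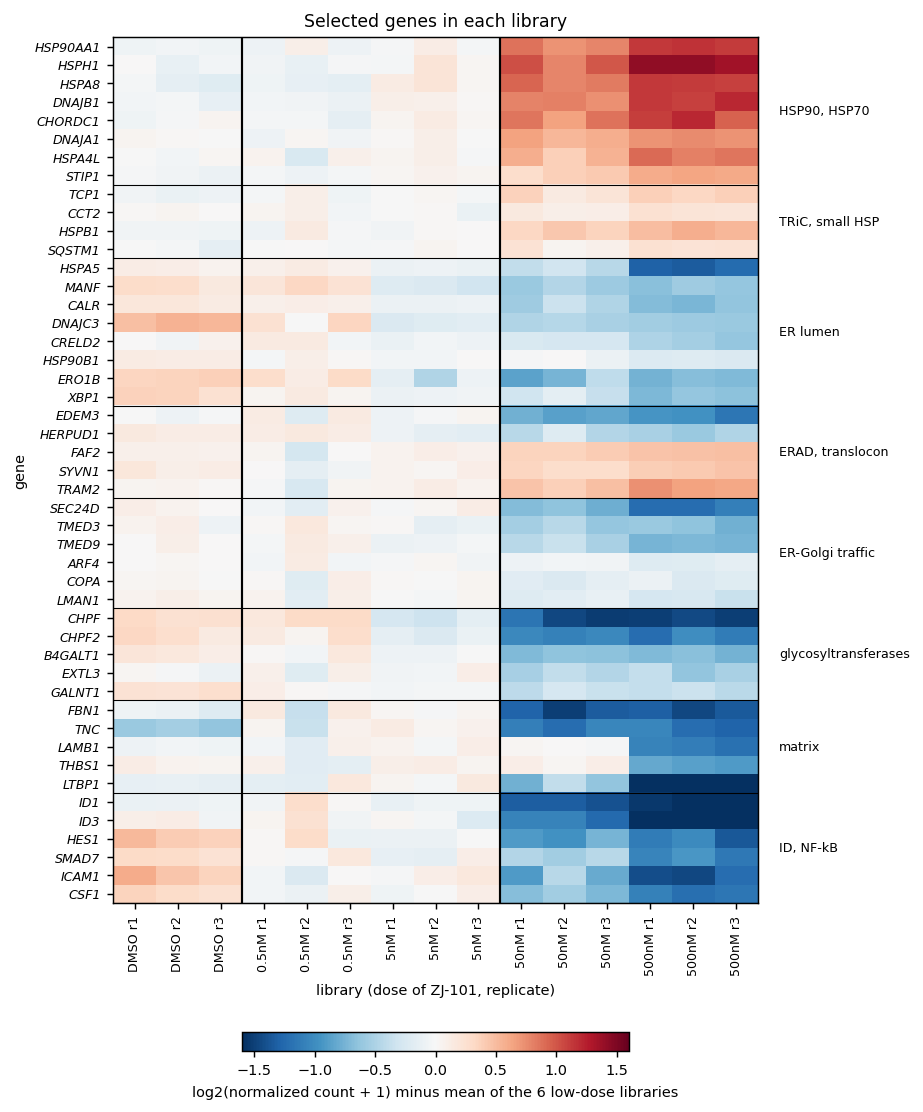
Log2(normalized count + 1) of selected genes (rows, grouped by list) in each of the 15 libraries (columns, with dose and replicate), minus the mean of the 6 low-dose libraries. Cytosolic chaperone genes are red and ER, traffic, glycosyltransferase, matrix and ID genes mostly blue in all 6 high-dose libraries, while the DMSO libraries on the left are mostly pale, with TNC (1272 to 1357 normalized counts), DNAJC3, HES1 and ICAM1 among the exceptions. FAF2, SYVN1 and TRAM2 are red within the ER groups.

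The extracellular matrix list held 28 falls and 4 rises among 53 tested genes, with a median of -0.15. FBN1, the microfibril protein fibrillin, measured 804 to 1166 (median 1071) at the low doses and 367 to 427 (median 411) at the high doses (log2 difference -1.37 ± 0.078 SE, limma adjusted p = 5.05e-09). OLFML2A, a secreted olfactomedin-like protein, measured 185 to 302 (median 196) against 67.1 to 89.5 (median 71.4) (log2 difference -1.51 ± 0.10 SE, limma adjusted p = 3.10e-08), the largest fall named by the selection rule. TNC, the adhesion-modulating matrix protein tenascin C, measured 1549.8 to 2159 (median 2059) against 812 to 962 (median 886) (log2 difference -1.15 ± 0.066 SE, limma adjusted p = 5.65e-09). None of the 3 overlapped. Outside the list, MMP14, a membrane-bound collagenase named by the same rule, measured 8435 to 10612 (median 9581) at the low doses and 3909.9 to 5303 (median 4477) at the high doses (log2 difference -1.07 ± 0.037 SE, limma adjusted p = 1.74e-11). LTBP1, which anchors latent TGF-beta, was chosen after its values were seen. It measured 833 to 1048 (median 937) at the low doses and 246 to 711 (median 425) at the high doses (log2 difference -1.19 ± 0.074 SE, limma adjusted p = 1.43e-08). The collagens COL5A1 and COL6A3 fell by 0.55 and 0.75, and EFEMP1 by 0.71. The rises were HSPG2, COL27A1, LAMB3 and COL7A1, and the list held 2 rises without 5 nM replicate 2, 50 nM replicate 1, 50 nM replicate 3 or 500 nM replicate 3. LAMB3, a laminin chain, rose by 0.27 without overlap, and HSPG2 by 0.35 with an adjusted p (limma) of 0.0478 that was lost in 10 of 24 alternatives.

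Integrins moved both ways. Among 34 integrin and focal adhesion genes 4 rose and 3 fell, near the background. The falls were integrin chains: ITGA5, the fibronectin receptor, from 2693 to 3188 (median 2933) to 1330.0 to 1839 (median 1559) (log2 difference -0.92 ± 0.042 SE, limma adjusted p = 4.19e-10), ITGA6, a laminin receptor chain, at -0.76, and ITGB5 at -0.60. ITGB4, the partner of ITGA6, rose (0.33), as did ITGA3 (0.12), a call lost in 11 of 24 alternatives, and CAV1 (0.13). Without 5 nM replicate 1, 5 nM replicate 2, 50 nM replicate 3 or 500 nM replicate 1, 2 genes of the list rose.

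The ID genes, inhibitors of basic helix-loop-helix factors and targets of BMP-SMAD signaling, fell together. ID1 measured 6795 to 8977 (median 7056) at the low doses and 2417 to 2943 (median 2664) at the high doses, with 6824 to 6995 in DMSO (log2 difference -1.46 ± 0.047 SE, limma adjusted p = 1.12e-11). ID3 measured 1073 to 1478 (median 1252) against 368 to 597 (median 461) (log2 difference -1.43 ± 0.057 SE, limma adjusted p = 1.14e-10). ID4 and ID2, at lower levels, fell by 1.34 and 0.87. All 4 were without overlap. Over the whole list of 30 ID and BMP-SMAD genes 14 fell and 4 rose (median -0.13). The feedback inhibitors SMAD7 and SMAD6 fell by 0.76 and 0.39, and HES1, a repressor downstream of Notch and BMP, by 1.02. The ligand BMP4 went the other way, from 1506 to 1649.8 (median 1573) to 2152 to 2310.4 (median 2208) (log2 difference 0.49 ± 0.032 SE, limma adjusted p = 3.10e-08). In DMSO BMP4 measured 1941 to 2056, above every low-dose library and below every high-dose one, and nearer to the high doses. The receptor BMPR1B rose by 0.33, a call lost in 6 of 24 alternatives. In DMSO it measured 163 to 167, beside 165 to 197 at the high doses. Without 50 nM replicate 1 or without 500 nM replicate 2, 2 genes of the list rose.

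NF-kB target genes and cytokines held 15 falls and 1 rise among 30 tested (median -0.19), and 14 were not called. ICAM1, the adhesion receptor for leukocytes, measured 541 to 715 (median 634) at the low doses and 231 to 465 (median 304) at the high doses, with 814 to 958 in DMSO (log2 difference -1.04 ± 0.076 SE, limma adjusted p = 8.50e-08). An antisense gene covers 25.4% of its exon bases, and the strandedness of the counting is not given in the sources used here. CSF1, the macrophage growth factor, measured 8418 to 9678 (median 8821) against 3897 to 6118 (median 4839) (log2 difference -0.90 ± 0.044 SE, limma adjusted p = 8.05e-10). The chemokine gene CXCL2 fell by 0.54, the inhibitor gene NFKBIA by 0.43, BIRC3 by 0.49 and IL6 by 0.35. The rise was CXCL8 (0.21).

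Of the signaling feedback genes of the MAPK pathway 10 of 25 fell and 2 rose (median -0.10). The phosphatases DUSP5 and DUSP6, at -0.23 and -0.23, the ETS factor ETV1, at -0.28, and the inhibitors SPRY2 and SPRY4, at -0.20 and -0.15, had small differences. The rises were Eph receptors: EPHA2 measured 9139.7 to 10368 (median 9838) at the low doses and 13579.6 to 15346 (median 14224) at the high doses (log2 difference 0.55 ± 0.029 SE, limma adjusted p = 2.37e-09), and EPHA4 rose by 0.64. EGFR, which lies upstream, measured 3471 to 5340.4 (median 5000.3) against 6019 to 8610.0 (median 7026) (log2 difference 0.58 ± 0.086 SE, limma adjusted p = 1.78e-04), and its lowest value was in 0.5 nM replicate 2. Among 27 immediate-early, AP-1 and KLF factors 7 fell and 4 rose, with JUNB and KLF2 at -0.65 and -0.62 and without overlap. FOSL1 and FOSB were rises at 0.11 and 0.61 that were lost in 9 of 24 and 13 of 22 alternatives, and leaving out any one library left 0 to 3 rises in this list. Among 27 YAP/TAZ-TEAD target genes 9 fell and 5 rose, with CRIM1, CCN2 and CCN1 at -0.42, -0.25 and -0.20 and AJUBA at 0.32, so that this list had no common direction (median 0.01).

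NFE2L3 and NFE2L1, transcription factors of the cap'n'collar family, were among the largest falls. NFE2L3 measured 2767 to 3069 (median 2943) at the low doses and 823 to 1973 (median 1301) at the high doses (log2 difference -1.23 ± 0.043 SE, limma adjusted p = 1.74e-11). Exons of HNRNPA2B1 cover 28.1% of its exon bases and it has a near-identical pseudogene, so part of its reads is uncertain. NFE2L1, the ER-anchored regulator of proteasome genes, measured 4366 to 5751 (median 5169) against 2015 to 2307 (median 2179) (log2 difference -1.23 ± 0.052 SE, limma adjusted p = 1.55e-10). The list of 27 cap'n'collar factors and NRF2 target genes gave 1 further call, TXNRD1 (0.14). Of 44 proteasome genes 4 fell (PSMB1, PSMC3, PSMD8 and PSMD3; PSMC3 at -0.13), and limma, edgeR and DESeq2 called 0 as rises (2 at an unadjusted p under 0.05). The calls of PSMD8 and PSMD3 were lost in 12 of 24 alternatives each. At an unadjusted p under 0.05, 11 of the 44 genes were lower, beside 14.9% of all tested genes. The falls of this list numbered 1 to 6 when 1 library was left out.

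Sterol and fatty acid genes rose in part. Of 35 tested 11 rose and 3 fell (median 0.09). ACSL3, an acyl-CoA synthetase of lipid droplets, measured 2004 to 2169 (median 2050.2) at the low doses and 2609.9 to 3035 (median 2941) at the high doses, with 2734 to 2819 in DMSO (log2 difference 0.48 ± 0.034 SE, limma adjusted p = 5.89e-08). The transcription factor gene SREBF1 rose by 0.30 and SQLE by 0.28. INSIG1, a target of the same factors, fell by 0.36. CYP51A1 rose by 0.58, but another gene covers 74.1% of its exon bases. The letters TCACNCCAC of the sterol regulatory element occurred on either strand in 1.15% of all promoters, 1.12% of those of genes that rose, 1.52% of those of genes that fell and 1 of the 28 windows of this list.

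Among 32 interferon-stimulated genes 6 rose and 1 fell, all modestly, with HERC6 at 0.26, OASL at 0.26, IFIT1 at 0.19 and IRF1 at -0.29. Of the S-phase genes 10% were called and of the mitotic genes 17.1%, against 16.6% of all tested genes. The S-phase calls were all rises and the mitotic calls all falls, against 8.62% rises and 8.02% falls over all tested genes. Of 40 S-phase genes 4 rose, among them UHRF1 (0.22), and limma, edgeR and DESeq2 called 0 as falls (1 at an unadjusted p under 0.05), while 12 were higher at an unadjusted p under 0.05. The rises numbered 7 without 0.5 nM replicate 2 or 50 nM replicate 2, and 2 without 5 nM replicate 2 or 3, 50 nM replicate 1 or 3, or 500 nM replicate 1. Of 35 mitotic genes 6 fell, among them CENPA (-0.24) and CCNA2 (-0.12), the latter lost in 10 of 24 alternatives, and the same 3 tools called 0 as rises (1 at an unadjusted p under 0.05). At an unadjusted p under 0.05, 9 of the 35 were lower, beside 14.9% of all tested genes. The falls numbered 1 to 6 when 1 library was left out, and 3 or fewer without any of 8 of the 12 libraries. CDKN1A, the gene of the cell cycle inhibitor p21, fell from 1586 to 1766 (median 1726) to 1049 to 1220.3 (median 1093) (log2 difference -0.61 ± 0.038 SE, limma adjusted p = 1.43e-08). RBL1, a pocket protein of the retinoblastoma family, rose by 0.24, and CDKN2C and CDKN1B fell by 0.20 and 0.11, the latter a call lost in 12 of 24 alternatives. In the BCL2 family of 17, 17.6% were called, near the 16.6% of all tested genes. The pro-apoptotic BBC3 and PMAIP1 fell by 0.59 and 0.19, and BCL2L1 rose by 0.13. Another gene covers 41.3% of the exon bases of BCL2L1, so its reads are uncertain.

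Few genes of protein synthesis and respiration passed the adjusted threshold, while more were lower at an unadjusted p under 0.05, where 14.9% of all tested genes were lower. Of 70 cytosolic ribosomal protein genes 9 fell (median -0.09) and limma, edgeR and DESeq2 called 0 as rises, as did an unadjusted p under 0.05, while the falls numbered 5 with edgeR and 15 with DESeq2. They numbered 5 without 0.5 nM replicate 2, 16 without 0.5 nM replicate 3, 15 without 50 nM replicate 2, 3 without 500 nM replicate 3, 1 without 50 nM replicate 1, and 0 without 5 nM replicate 1 or 2, 50 nM replicate 3, or 500 nM replicate 1 or 2. At an unadjusted p under 0.05, 30 of the 70 were lower. Of 72 nuclear respiratory chain genes 6 fell (20 were lower at an unadjusted p under 0.05), with NDUFB7 at -0.22, and the 3 tools called 0 as rises (1 at an unadjusted p under 0.05). Of the 13 mitochondrially encoded genes limma called 0 in either direction, as did edgeR, DESeq2 and an unadjusted p under 0.05, with a median of -0.12. Of 39 translation initiation factors 1 rose (4 without 50 nM replicate 2, 3 without 0.5 nM replicate 3 and 2 without 0.5 nM replicate 2) and 1 fell, the latter EIF4EBP1 (-0.21), an inhibitor of cap-dependent translation. Of 13 tubulins 1 (TUBA1A) fell and limma, edgeR and DESeq2 called 0 as rises, as did an unadjusted p under 0.05.

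**Figure D4:**
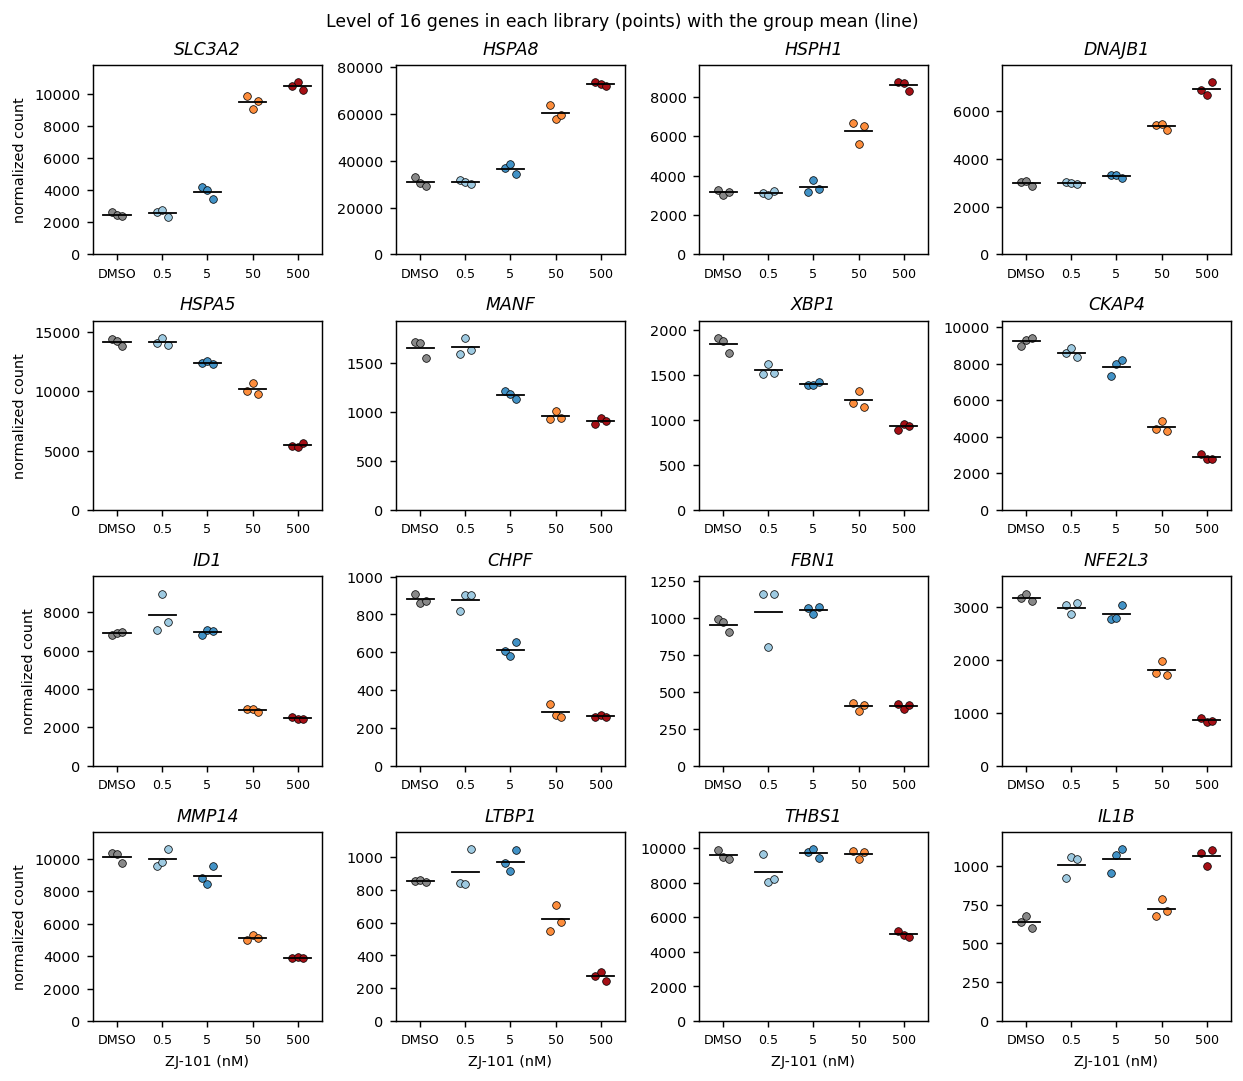
Normalized counts (y axis, linear from 0, scaled per gene) of 16 genes in the 3 libraries of each group (points) with the group mean (line), by dose of ZJ-101 (x axis). SLC3A2, ID1, CHPF and FBN1 reach most of their change at 50 nM, HSPA5 and THBS1 change mostly or wholly between 50 and 500 nM, NFE2L3 and LTBP1 step down at both high doses, and IL1B is lower at 50 nM than at the other drug doses.

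The high-dose group joins 2 doses, so the contrast of 500 against 50 nM was examined for each gene in the same fit and on the same libraries. It called 202 of 13561 genes (1.49%), of which 43 were higher and 159 lower at 500 nM. Of the 1169 rises, 31 were also higher at 500 than at 50 nM and 2 were lower. Of the 1088 falls, 104 were also lower at 500 than at 50 nM and 2 were higher. Another 63 genes differed between the 2 high doses without a call between high and low doses. The count was 496 without 0.5 nM replicate 2, 83 without 50 nM replicate 2 or without 500 nM replicate 3, 118 without 50 nM replicate 3 and 102 without 500 nM replicate 2.

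**Figure D5:**
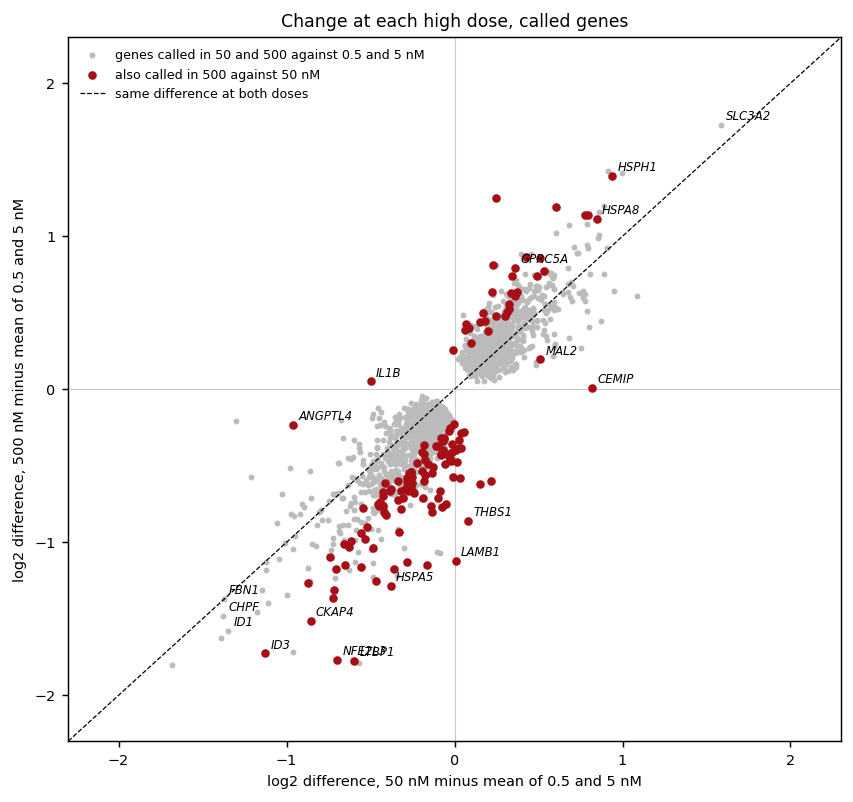
Log2 difference from the mean of the low doses at 50 nM (x axis) and at 500 nM (y axis) for the 2257 called genes (gray points), with the genes that also differed between 500 and 50 nM in red. Genes on the dashed diagonal, such as FBN1 and CHPF, changed as much at 50 as at 500 nM, genes far below it on the left, such as HSPA5 and LAMB1, fell further at 500 nM, and CEMIP and IL1B differed from the low doses mainly at 50 nM.

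Some genes were near their 500 nM level at 50 nM already. As a description of single genes, the difference at 50 nM from the low-dose mean was divided by that at 500 nM. This share was 100.4% for FBN1, 92.9% for CHPF, 91.7% for SLC3A2 and 85.4% for ID1, and none of the 4 was called between 500 and 50 nM. FBN1 measured 402 ± 31.3 at 50 nM and 403 ± 20.5 at 500 nM (mean ± SD, n = 3 each). The libraries of the 2 high doses overlapped for FBN1 and CHPF. They did not overlap for SLC3A2 (9062 to 9851 at 50 nM, 10228 to 10704 at 500 nM) or ID1 (2794 to 2943 and 2417 to 2534). For these genes the absent call does not show that the 2 levels were equal. Over all 56 tested genes of the glycosyltransferase list the median difference between 500 and 50 nM was -0.051. Of these, 2 were called lower, beside 159 of all 13561 tested genes. Of the cytosolic chaperones, 5 of 23 genes of the HSP70 list, 4 of 16 of the HSP90 list and 0 of 13 of the TRiC and prefoldin list were called higher at 500 than at 50 nM. Over all 13561 tested genes 43 were called higher. HSPH1, DNAJB1, HSP90AA1 and HSPA8 were among them, by 0.46, 0.37, 0.35 and 0.27.

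Other genes fell further between 50 and 500 nM. On the log2 scale the share was 29.6% for HSPA5, 39.4% for NFE2L3 and 41.7% for XBP1. NFE2L3 measured 1807 ± 145 at 50 nM and 857 ± 37.8 at 500 nM (log2 difference -1.07 ± 0.061 SE, limma adjusted p = 5.16e-08). Of the 53 tested members of the matrix list, 15 were lower at 500 than at 50 nM, where 1.49% of all genes were called in either direction, and the median difference between 500 and 50 nM over all 53 was -0.24, against 0.0031 over all tested genes. The laminin chain LAMB1 measured 4397 ± 77.2 at 50 nM, against 4522 ± 208 at 5 nM, and 2012 ± 90.3 at 500 nM (500 against 50 nM, log2 difference -1.13 ± 0.060 SE, limma adjusted p = 3.21e-08). THBS1, the matrix protein thrombospondin 1, measured 9647 ± 249 and 5015 ± 169 (log2 difference -0.94 ± 0.060 SE, limma adjusted p = 2.02e-07). LAMB2, LAMC1, the collagen lysyl hydroxylase PLOD2 and the cross-linking enzyme LOX followed, with differences of -0.81, -0.99, -0.57 and -0.61. For LAMB1, THBS1, LAMC1, PLOD2 and LOX the 50 nM libraries overlapped the low-dose ones, and for LAMB2 the 3 libraries of 50 nM lay above them, whereas the 500 nM libraries of all 6 genes lay below every other library. ABCA1, a cholesterol exporter, rose mainly at 500 nM, with 298 ± 52.5 at 50 nM and 597 ± 114 at 500 nM (log2 difference 1.00 ± 0.18 SE, limma adjusted p = 0.00941). In DMSO it measured 367 to 370.3, above every low-dose and 50 nM library and below every 500 nM library.

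For 4 called genes the 500 nM level lay back towards the low doses. CEMIP, a hyaluronan-degrading protein, rose to 816 ± 43.3 at 50 nM and was at 466 ± 39.5 at 500 nM, against 451 ± 89.4 and 481 ± 39.8 at the low doses (500 against 50 nM, log2 difference -0.81 ± 0.11 SE, limma adjusted p = 0.00108). MAL2, a protein of apical transport, measured 1861 ± 18.8 and 1496 ± 15.7 (log2 difference -0.32 ± 0.047 SE, limma adjusted p = 0.00199). In DMSO CEMIP measured 746 to 803 and MAL2 1838 to 1927, above both low doses and near the 50 nM level. IL1B, the cytokine interleukin 1 beta, fell to 724 ± 56.2 at 50 nM and measured 1061 ± 54.7 at 500 nM (log2 difference 0.55 ± 0.074 SE, limma adjusted p = 9.06e-04), and ANGPTL4, a lipase inhibitor, measured 118 ± 22.6 and 195 ± 21.2 (log2 difference 0.73 ± 0.12 SE, limma adjusted p = 0.00616). IL1B measured 601 to 674 in DMSO, again below both low doses and nearer to 50 nM, whereas ANGPTL4 measured 156 to 194 in DMSO, also below both low doses but nearer to 500 nM. The mean over both high doses is smaller than the difference at 50 nM for these 4 genes.

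The 2 low doses differed in few genes. The contrast of 5 against 0.5 nM called 14 of 13561 genes (0.103%), 3 higher and 11 lower at 5 nM, and 906 genes had an unadjusted p under 0.05. SLC3A2 was among the rises (log2 difference 0.59 ± 0.070 SE, limma adjusted p = 0.00238), with TTC17 and ZNF251. The falls were MANF (log2 difference -0.50 ± 0.055 SE, limma adjusted p = 0.00185), CHPF (log2 difference -0.51 ± 0.085 SE, limma adjusted p = 0.0258), MGAT1, MOGS, ERLEC1, B4GAT1, TMEM165, DNAJB11, TMTC3, ARSK and FSTL3. Leaving out 1 low-dose library other than 0.5 nM replicate 2 left 4 to 6 calls, and leaving out 500 nM replicate 3 left 9. Of the 14 genes 11 were also called between high and low doses. ZNF251, with low counts, rose at 5 nM (log2 difference 1.93 ± 0.33 SE, limma adjusted p = 0.0343) and was lower at the high doses (log2 difference -0.79 ± 0.24 SE, limma adjusted p = 0.0321), a call lost in 10 of 22 alternatives. The call of ARSK between high and low doses was lost in 14 of 24. TMEM165, a Golgi ion transporter, and DNAJB11, an ER co-chaperone, were not: TMEM165 measured 2759 ± 110.1 at 0.5 nM, 2198 ± 17.6 at 5 nM and 2593 ± 43.9 at 500 nM, and DNAJB11 measured 808 ± 59.6, 601 ± 23.3 and 690.0 ± 2.06. FSTL3 was the other gene without a call between high and low doses.

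The DMSO libraries mostly lay with the low doses. By the log2 group means, DMSO was nearer to the low doses for 877 of the 1169 rises (75.0%) and for 877 of the 1088 falls (80.6%). For the remaining 292 rises and 211 falls DMSO was nearer to the high doses. TNC measured 1272 to 1357 in DMSO, below the low doses at 1549.8 to 2159 (median 2059) and above the high doses at 812 to 962 (median 886). MMP1, a secreted collagenase, measured 701 to 808 in DMSO, 1013 to 1119 (median 1061) at the low doses and 530.0 to 716 (median 599) at the high doses (log2 difference -0.81 ± 0.038 SE, limma adjusted p = 5.29e-10). LCN2, a secreted iron-siderophore carrier, measured 474 to 553 in DMSO, 340.5 to 396 (median 367) at the low doses and 459 to 603 (median 549) at the high doses (log2 difference 0.52 ± 0.067 SE, limma adjusted p = 3.89e-05). RN7SL1, the RNA of the signal recognition particle, measured 1044 to 1141 in DMSO, 1139 to 1737 (median 1538) at the low doses and 789.8 to 1020.5 (median 872) at the high doses (log2 difference -0.70 ± 0.092 SE, limma adjusted p = 4.83e-05). It has near-identical copies and is not polyadenylated as mRNA is, so its level in poly-A libraries is uncertain. These levels are a description, and DMSO against each dose was not tested here.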

How the data were processed

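RNA of 15 cultures was sequenced after poly-A selection as paired-end reads of 150 bp. The authors aligned reads to hg38 with HISAT2 and counted them per gene with HTSeq, and the deposited values are counts divided by DESeq2 size factors, a signal of normalized counts per gene. The versions of these tools and the strandedness of the counting are not given in the sources used here. Multiplying by the size factors recovered whole reads for 100.0% of values (within 0.001), with 12415519 to 15284762 reads in the treated libraries. A line of doses that names no gene was left out.

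Genes averaging 10 or more across all 15 libraries were tested with limma 3.58.1 (R 4.3.3) on log2(normalized count + 1), with 1 term per dose in the 12 treated libraries and Benjamini-Hochberg adjustment over 13561 genes at 0.05. The contrasts were the mean of 50 and 500 nM minus the mean of 0.5 and 5 nM, 500 minus 50 nM and 5 minus 0.5 nM. On simulated counts with 200 changed genes the high against low contrast recovered 82 of those changed 1.5-fold and 93 of those changed 2-fold, with 14 false calls. The genes named are the 8 largest rises and falls among called, non-overlapping genes with a mean of at least 50, the 5 rises and 5 falls with the smallest p, the called, non-overlapping member with the largest difference in each list, and genes called in the opposite direction between the high doses. Further genes were chosen after their values were seen. The members and lists were chosen with earlier results of these data known. Alternatives were other pseudocounts, filters and scalings, edgeR 4.0.16 and DESeq2 1.42.0 on the recovered reads, a replicate block, other fits and leaving out each library. Exon overlap and near-identical genes were taken from GENCODE with bedtools 2.31.1 and minimap2, and promoters from RefSeq (GRCh38.p14). Some genes are not reported here.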

Additional observations from a re-analysis of the deposited data

Results flagged for a closer look

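In 33 of 446 gene-by-group sets of 6 libraries tested among the named genes, 1 library lay apart from the others by Dixon's criterion. Chance alone sets a library apart in about 1 group in 20 where all 6 libraries share 1 level. Each set here joins 2 doses, and the sets share the same 12 libraries, so that rate does not apply directly. In 21 of the 33 sets the library was 0.5 nM replicate 2, which also stood apart in its counts. It was the lowest low-dose library, in normalized counts beside the next library, for AL118506.1 (63.1, next 84.1), SEMA3A (519, next 592), FAF2 (1451, next 1767), TXNRD1 (7886, next 8686), TNC (1550, next 2030), HSPG2 (1191, next 1787), EGFR (3471, next 4829), HSPA4L (901, next 1052), SLC38A1 (4949, next 5587), SLC7A1 (2202, next 2841) and MSN (15270, next 17091). It was the highest low-dose library, in normalized counts beside the next library, for ID1 (8977, next 7474), PSMC3 (4616, next 4194), SDF2L1 (613, next 447), HSPE1 (453, next 348), TRIB3 (473, next 385), HES1 (291, next 241), NFKBIA (2986, next 2687), PMAIP1 (3401, next 2959), VIM (18413, next 15092) and PSMB1 (4051, next 3657).

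Among the other libraries, each again within its high-dose or low-dose group of 6, the following lay apart. The library 50 nM replicate 1 was highest for CHPF (326, next 269) and highest for CRIM1 (3579, next 3300). The library 50 nM replicate 3 was lowest for CENPA (337, next 384) and highest for ERO1B (151, next 125). The library 50 nM replicate 2 was highest for HERPUD1 (390, next 330), highest for CXCL2 (195, next 170), highest for INSIG1 (254, next 211) and highest for TUBA1A (1812, next 1491). The library 0.5 nM replicate 1 was highest for GALNT1 (1392, next 1305). The library 500 nM replicate 3 was highest for OASL (2136, next 1996). The library 5 nM replicate 1 was highest for STYK1 (111, next 92.7) and highest for PSMD3 (3247, next 3094).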

How the results depend on the processing

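Alternatives were run on 223 of the genes named in the text. Of these, 190 kept their direction and their side of the threshold in each, 28 lost a call in at least 1, 4 (HYOU1, TRIB3, AXL and FSTL3) gained one, and 1 (MSN, never called) changed sign, between -0.053 without 0.5 nM replicate 2 and 0.0024 without 0.5 nM replicate 3. Calls were lost for C1GALT1, FOSB, CDKN1B, GADD45A, PSMD3, ITGA3, HSPG2, CCNA2, SLC7A1, FOSL1, ARF4, BMPR1B, PSMC3, SERP1, SPRY4, CEMIP, LOX, LAMB2, LAMB1, IL1B, HSP90B1, PLOD2, SLC7A11, THBS1, ARSK, PSMD8, ZNF251 and COL7A1. Several lists with a single call or none in a direction also moved to 0, 1 or 2 calls there when some libraries were left out. The number of genes called between high and low doses was 2257 and ranged from 1731 without 50 nM replicate 3 to 2661 without 0.5 nM replicate 2. It was 2248 with edgeR and 2050 with DESeq2, both on the recovered reads, and 33 at an absolute log2 difference of at least 1. Scaling every library to the same total moved the share of rises from 51.8% to 57.6%, TMM scaling moved it to 47.7% (1089 rises and 1196 falls), and no scaling moved the median of all genes by more than 0.1. For 500 against 50 nM the 202 calls became 309 with all 15 libraries in the fit, 346 at an adjusted p under 0.1 and 5 at an absolute difference of at least 1. They ranged from 83 (without 50 nM replicate 2, and equally without 500 nM replicate 3) to 496 (without 0.5 nM replicate 2). For 5 against 0.5 nM the 14 calls became 25 with DESeq2 and 1 at an absolute difference of at least 1, and ranged from 4 (without 5 nM replicate 1 or 2) to 21 when 1 library was left out. The cause was not tested.

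Samples with the same replicate number did not deviate together: over 18 pairs the correlation of deviations lay between -0.0822 and 0.0961, so the numbers were not taken as pairs. With a replicate block the calls numbered 2384 between high and low doses, 224 for 500 against 50 nM and 13 for 5 against 0.5 nM. Depth of 12415519 to 15284762 reads per treated library limits genes near the mean of 10 normalized counts.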

Other observations

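Among genes outside the lists described above, several that encode receptors and junction proteins at the cell surface were higher at the high doses. These genes were chosen after their values were seen, as the ones with recognizable roles among the larger differences, so they are a description. KDR, the VEGF receptor 2, measured 73.1 to 125 (median 101) normalized counts at the low doses and 161 to 220.5 (median 183) at the high doses (log2 difference 0.87 ± 0.097 SE, limma adjusted p = 1.00e-05). IL7R, the interleukin 7 receptor, measured 289.7 to 348 (median 307) against 463 to 605 (median 588) (log2 difference 0.82 ± 0.066 SE, limma adjusted p = 2.82e-07). NOTCH1, a receptor of cell-cell signaling, measured 881 to 1319.6 (median 1237) against 1537 to 1931 (median 1709) (log2 difference 0.57 ± 0.071 SE, limma adjusted p = 2.89e-05), and MERTK, a receptor tyrosine kinase, 393 to 525 (median 428) against 618 to 779 (median 653) (log2 difference 0.62 ± 0.050 SE, limma adjusted p = 2.53e-07). The kinase STYK1, the thrombin receptor F2RL3 and the tight junction gene CLDN1 rose by 0.92, 0.92 and 0.73. None of these 7 genes overlapped between the groups.

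Others were lower. SEMA3A, a secreted axon guidance factor named by the selection rule, measured 519 to 630.4 (median 607) at the low doses and 207 to 289 (median 229.8) at the high doses (log2 difference -1.32 ± 0.064 SE, limma adjusted p = 7.78e-10). MATN2, a matrix protein outside the matrix list, measured 207 to 264 (median 243) against 96.8 to 117 (median 109.8) (log2 difference -1.12 ± 0.068 SE, limma adjusted p = 1.07e-08). PLAUR, the urokinase receptor, IKBIP and the chondroitin synthase CHSY3 fell by 0.85, 1.00 and 0.93. The gene AL118506.1, also named by the rule, rose by 0.93 and had no match in the annotation used here. By gene type, 18.3% of 11744 tested protein-coding genes were called, against 7.58% of 541 tested lncRNAs.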
